A study of Homo sapiens with 96 samples.

Results

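A cassette exon is an exon that a mature transcript either keeps or leaves out. When its length is not a multiple of 3, keeping or leaving it out changes the reading frame of everything that follows, and the shifted frame usually runs into a stop codon. If that stop lies upstream of a later exon junction, the transcript can be degraded by nonsense-mediated decay (NMD), so such exons can act as switches of protein output as well as of protein sequence. Exons are recognised across their own length when the introns beside them are long, through the splice sites at both ends, the U1 and U2 snRNPs, and SR and hnRNP proteins, many of which carry methylated arginines.

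The exons described here were taken by a rule of length alone. Each was 28 to 300 nt long, was not divisible by 3, and had at least 1 flanking intron over 500 nt. Among the 164617 cassette exon events in the 8 splicing tables of the study, 87958 (53.4%) met the rule. They covered 49548 distinct exons in 12267 genes, and 20659 of these exons stood in more than 1 event because their neighbours varied. The events are therefore not independent of each other. For comparison, 57294 events met the same limits with a length divisible by 3 (frame-keeping), and 10730 events lay between introns that were both 500 nt or shorter.

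The cells were A549, a lung adenocarcinoma line, and poly(A)-RNA seq was made from 30 libraries in 10 groups of 3. PRMTs place methyl groups on arginine. GSK591 inhibits PRMT5, the main Type II enzyme, which makes symmetric dimethylarginine, and MS023 inhibits the Type I enzymes, which make asymmetric dimethylarginine. Control cells received DMSO at 0.01% and were collected at 4 and 7 days, and cells given GSK591 or MS023, each at 1 µM, were collected at 2, 4 and 7 days. A co-treatment of both inhibitors at 1 µM each was collected at 2 and 4 days. The 2-day and 4-day groups were set against the 4-day DMSO libraries and the 7-day groups against the 7-day DMSO libraries, so 6 of the comparisons share 1 control group and the other 2 share another. These libraries hold no 2-day DMSO group, so in the 2-day comparisons the inhibitor cannot be told apart from the shorter time in culture. The control of the 7-day tables is not named after DMSO and was inferred to be the 7-day DMSO group, the only control of that day in the labels, and every 7-day value rests on this. No source used here says whether the 3 libraries of a group came from separate cultures, so the p-values measure the spread between these libraries, which may be technical. A549 is a single line, the enzymes were blocked by inhibitors only, and the tables give no transcript levels.

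Inclusion is given as Ψ, the share of transcripts that keep the exon, and ΔΨ is the inhibitor mean minus the DMSO mean. Events entered a comparison if each of its libraries held 10 or more reads on them and both forms were seen, and an event is called where the adjusted p was under 0.05 in a quasi-binomial test over all cassette exon events (limma moderation, Benjamini-Hochberg). Of the 87958 events, 70354 were tested in at least 1 of the 8 comparisons with DMSO, 21230 in all 8, and 17604 in none. Called in at least 1 comparison were 6373, a count that was not made over all cassette exon events and so has no background. The share called and its background are given for each comparison below. The libraries held 19188656 to 30175419 reads on the tested events, with a median of 141 to 243 reads per event, and replicate libraries differed by more than counting error in every pair (chi-square per degree of freedom 1.802 to 2.826). Of the epithelial keratins, KRT7 had 38 cassette events listed, KRT8 17 and KRT18 4, while EPCAM and CDH1 had 4 each. PTPRC, PECAM1, COL1A1 and COL3A1, markers of blood, endothelial and stromal cells, had 0 events listed.

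The same limits of size and introns chose the frame-shifting and the frame-keeping exons, so their likeness in both was largely set by the rule. Median length was 118 nt (117 nt for frame-keeping exons) and the median flanking introns were 2645 nt upstream and 2355 nt downstream (2561 and 2292 nt). GC content was 48.8% against 48.9%. Nearly all had the standard GT donor (98.47%, with 1.42% GC) and AG acceptor (99.85%), and 99.51% matched an annotated exon. By the gene models, 64701 events (73.6%) had an exon that was coding throughout and 7949 (9.04%) one that overlapped coding sequence in part. A further 3841 events (4.37%) held an exon outside annotated coding sequence that carries a stop codon in the frame read from the coding exon upstream (a stop-bearing exon), 1176 (1.34%) a like exon without such a stop, and 10291 (11.7%) had no coding exon directly upstream. For coding exons whose frame could be read on, the very next exon was read as if the cassette exon had been left out. It held a stop codon in that frame in 68.7% of 60251 events, against 28.6% of 43709 frame-keeping events. The next exon was not required to be coding, and stops that are also read with the exon kept were counted. The shares are therefore not shares of stops made by skipping.

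Sequences of exons on which the results below turn are shown to make these classes visible. They were read from the GRCh37 genome on the strand of the gene, 5′ to 3′. In the coding exons the capitals mark the last 3 bases, which pair with U1 snRNA together with the start of the intron. In the stretches named as the next exon, and in the stop-bearing exons, the capitals mark the first stop codon in the frame used, the next exon being read as if the cassette exon had been left out. RAD51C, NAE1 and CD47 exons end in AAA, GGG and AGG, and the homologous exons of CLK1, CLK2 and CLK4 all end in GAT.
RAD51C exon (chr17:56809842-56809905, plus strand): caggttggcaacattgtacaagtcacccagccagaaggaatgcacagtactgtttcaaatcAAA
NAE1 exon (chr16:66839680-66839765, minus strand): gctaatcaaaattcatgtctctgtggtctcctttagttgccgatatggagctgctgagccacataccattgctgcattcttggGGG
CD47 exon (chr3:107770786-107770817, minus strand): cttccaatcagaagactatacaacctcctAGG
KIF23 exon (chr15:69738625-69738703, plus strand): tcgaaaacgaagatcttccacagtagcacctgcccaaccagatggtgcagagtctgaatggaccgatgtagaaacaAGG
KIF23 next exon to its stop (chr15:69739210-69739231, plus strand): tgttctgtggctgtggagaTGA
CLK2 exon (chr1:155238499-155238583, minus strand): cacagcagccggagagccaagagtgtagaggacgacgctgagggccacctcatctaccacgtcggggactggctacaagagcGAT
CLK2 next exon to its stop (chr1:155238130-155238150, minus strand): atgaaatcgttagcacctTAG
CLK1 exon (chr2:201724848-201724938, minus strand): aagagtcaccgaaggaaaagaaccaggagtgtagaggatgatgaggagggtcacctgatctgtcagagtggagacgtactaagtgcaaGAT
CLK4 exon (chr5:178044345-178044435, minus strand): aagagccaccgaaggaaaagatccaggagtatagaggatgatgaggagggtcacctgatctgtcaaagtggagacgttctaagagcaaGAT
ANAPC7 exon (chr12:110826317-110826428, minus strand): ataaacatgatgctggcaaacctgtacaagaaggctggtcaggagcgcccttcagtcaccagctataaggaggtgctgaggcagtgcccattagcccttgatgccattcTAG
ANAPC7 next exon to its stop (chr12:110825677-110825697, minus strand): gcttgttgtccctttctgTAA
TXNL4A stop-bearing exon, up to its stop (chr18:77746739-77746750, minus strand): gtggtggcaTAA
XRCC5 stop-bearing exon, up to its stop (chr2:216975190-216975207, plus strand): ctgctgaaaactttgTAG
CENPV stop-bearing exon, up to its stop (chr17:16252629-16252647, minus strand): gtaccggaattatataTGA
In KIF23, ANAPC7 and CLK2 the stop comes 22, 21 and 21 nt into the next exon, and in TXNL4A, XRCC5 and CENPV it comes 12, 18 and 19 nt into the included exon.

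Mean inclusion was lower in the cells given GSK591 or both inhibitors than in the 4-day DMSO cells. Over the 3524 events tested in all 8 comparisons with a mean Ψ from 0.1 to 0.9, the 4-day DMSO libraries averaged 0.646 to 0.653. The 3 libraries with GSK591 for 2 days averaged 0.609 to 0.611 and those with both inhibitors for 2 days 0.586 to 0.592, so neither group overlapped the control. MS023 libraries of 2 and 4 days lay between, at 0.632 to 0.639. At 7 days the DMSO libraries themselves averaged 0.617 to 0.629, below those of 4 days, and the 7-day GSK591 (0.617 to 0.624) and MS023 (0.627 to 0.629) libraries touched or overlapped them.

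**Figure D1:**
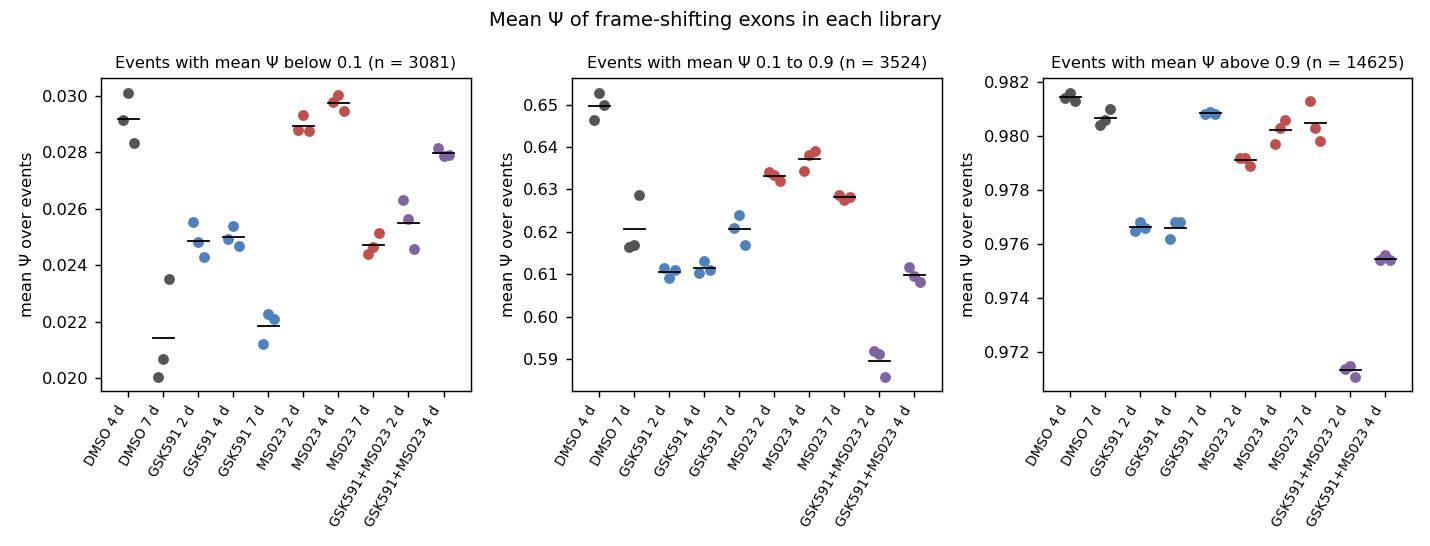
Mean Ψ (share of transcripts that keep the exon) over frame-shifting events tested in all 8 comparisons, split by their mean Ψ into 3 panels with their own vertical scales. Each point is 1 library and each line the mean of a group of 3, with DMSO in grey, GSK591 in blue, MS023 in red and both inhibitors in purple. In the middle panel the 4-day DMSO mean is 0.650, the 7-day DMSO mean 0.621 and the 2-day co-treatment mean 0.590.

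Exons that are nearly always kept moved in the same direction by a smaller amount. Over the 14625 events with a mean Ψ above 0.9, the group mean was 0.981 with DMSO at either day, 0.977 with GSK591 at 2 and 4 days, and 0.971 and 0.975 with both inhibitors at 2 and 4 days. With GSK591 at 7 days it was 0.981. Among the 3081 events with a mean Ψ below 0.1, the 4-day DMSO mean was 0.0292 and the 7-day DMSO mean 0.0214. At 2 and 4 days GSK591 gave 0.0249 and 0.0250, both inhibitors 0.0255 and 0.0280, and MS023 0.0290 and 0.0298. These values are given as descriptions, since the events share libraries and genes.

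With GSK591 and the co-treatment at 2 and 4 days, inclusion was lower than in 4-day DMSO at far more of the exons than it was higher. The same held over all cassette exon events. After 2 days of GSK591, 1370 of 39711 tested events (3.45%) were called, against 4.22% of all cassette exon events tested, and 1108 of them fell while 262 rose. At 4 days 2312 of 41412 (5.58%, background 6.61%) were called, with 1748 lower and 564 higher. Co-treatment gave 3114 of 41933 (7.43%, background 8.59%) at 2 days, with 2587 lower, and 3546 of 41485 (8.55%, background 9.74%) at 4 days, with 2513 lower. The share of calls that rose was 19.1% and 24.4% with GSK591 at 2 and 4 days and 16.9% and 29.1% with both, against 16.8%, 22.3%, 16.4% and 27.3% over all cassette exon events. Limma on the log2 odds called 432 events with GSK591 at 4 days and 1444 and 1870 with both inhibitors. The median ΔΨ was -0.0926 among the falls with GSK591 at 2 days and 0.0987 among the rises. In size, 523 of the falls and 126 of the rises reached 0.1 in Ψ.

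MS023 changed fewer. At 2 days 479 of 40496 tested events (1.18%, background 1.52%) were called and 344 of these fell. At 4 days there were 617 of 40696 (1.52%, background 1.88%), with 423 lower. None of the 2-day or 4-day MS023 calls remained under limma on the log2 odds of inclusion, nor did any with GSK591 at 2 days, although 3257, 3414 and 4913 events then had an unadjusted p under 0.05.

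By 7 days the balance was even. GSK591 gave 1376 calls of 36162 (3.81%, background 4.66%), with 666 higher and 710 lower, and MS023 gave 735 of 37033 (1.98%, background 2.40%), with 382 higher and 353 lower. Over all cassette exon events 1341 of the 3277 calls with GSK591 and 863 of the 1726 with MS023 were higher. Under limma on the log2 odds 71 events were called with GSK591 and 0 with MS023, where 3634 had an unadjusted p under 0.05. The 7-day groups have their own control. Between the DMSO groups, 383 of 32875 events (1.17%, background 1.32%) were called, and 343 of them were lower at 7 days than at 4 days. The count was 169 without library b and 183 without library a of the 7-day DMSO group, and 0 under limma on the log2 odds, with 3158 at an unadjusted p under 0.05. Time in culture and batch cannot be told apart in this contrast.

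The direction of the 2-day and 4-day calls rests in part on this control. With the 7-day DMSO libraries in its place, a choice made after seeing the data, the share of called events that rose went from 19.1% to 37.68% for GSK591 at 2 days, from 24.4% to 40.36% at 4 days, and from 16.9% to 27.13% and 29.1% to 39.94% for the co-treatment. For MS023 it went from 28.2% to 56.07% at 2 days and from 31.4% to 62.09% at 4 days, which turns the balance, and the counts rose to 1211 and 1385. The predominance of skipping with GSK591 or both inhibitors held with either control, and that with MS023 did not.

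**Figure D2:**
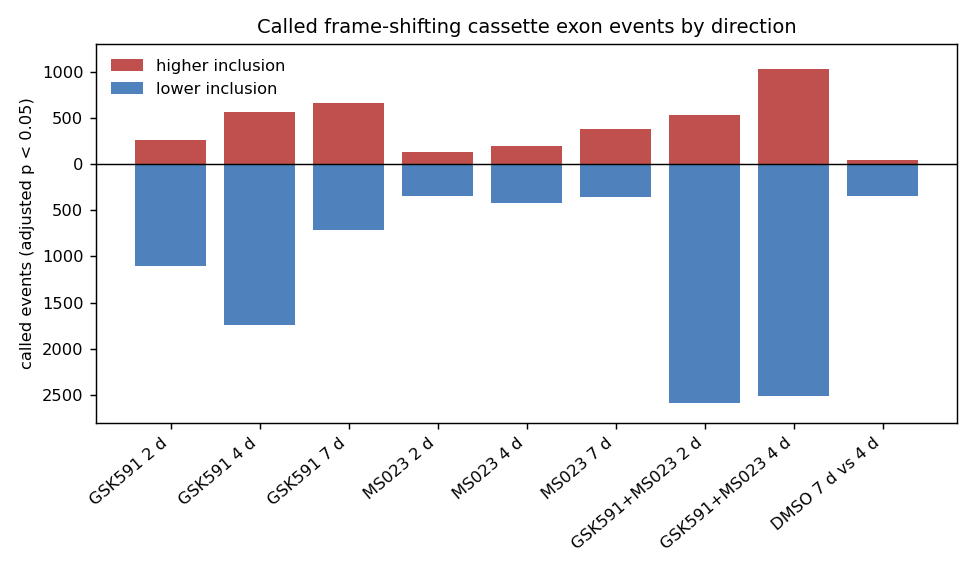
Number of frame-shifting events called in each comparison with DMSO, and in 7-day against 4-day DMSO, with events of higher inclusion above the line in red and of lower inclusion below it in blue. With both inhibitors for 2 days 2587 events fell and 527 rose, and with MS023 for 7 days 353 fell and 382 rose.

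Direct tests between the inhibitor groups, which do not use DMSO, separated the agents. GSK591 against MS023 differed at 2163 of 28912 events at 2 days (7.48%, background 8.84%), 3194 of 29390 at 4 days (10.9%, background 12.5%) and 2307 of 25805 at 7 days (8.94%, background 10.5%). Inclusion was lower with GSK591 in 1430 of the 2163 and 2091 of the 3194, while at 7 days it was lower in 1249 and higher in 1058. Limma on the log2 odds called 53, 965 and 488 events on the 3 days. Adding MS023 to GSK591 changed 819 of 29153 events at 2 days (2.81%, background 3.37%) and 1111 of 29693 at 4 days (3.74%, background 4.58%). Of these, 26.1% rose at 2 days and 48.8% at 4 days. Limma on the log2 odds called 0 events in either of the last pair of comparisons, with 2977 and 3270 at an unadjusted p under 0.05.

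Compared with other cassette exons, the frame-shifting exons were called slightly less often than frame-keeping exons of the same size and introns in all 8 comparisons, for example 5.58% against 6.36% with GSK591 at 4 days. Exons between 2 short introns were called more often with GSK591, at 14.0% on day 4, and 811 of their 852 calls were falls. No test was run between these sets, whose events share genes. The limit of 500 nt cut through a gradient: with GSK591 at 4 days, 12.0% of 809 tested events whose longer intron was 501 to 600 nt were called, and 13.9% of 916 frame-shifting events just outside, at 401 to 500 nt. For exon length the shares were 6.87% of 568 events at 28 to 37 nt and 9.42% of 191 events at 18 to 27 nt, and at the upper end 9.67% of 300 events at 281 to 300 nt and 7.89% of 228 events at 301 to 320 nt.

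Direction differed between the coding classes, as counts on which no test was run. With GSK591 at 2 days 762 of the 837 called coding exon events fell and 8.96% rose, whereas 66 of 131 called stop-bearing exon events rose (50.4%). At 4 days the shares that rose were 13.5% of 1351 coding and 59.5% of 237 stop-bearing events. Frame-keeping exons were split in the same way, with 10.6% of coding and 48.5% of stop-bearing calls higher at 2 days and 18.5% and 60.7% at 4 days. Class also went with the level of inclusion: the median Ψ of tested events in 4-day DMSO was 0.996 for coding and 0.0146 for stop-bearing exons in the 2-day comparison, and 9.09% of the calls at a mean Ψ of 0.9 or more rose, against 35.1% of those below 0.1. Whether direction goes with class at a given level was not tested. The co-treatment gave 7.71% and 53.4% at 2 days and 17.8% and 65.1% at 4 days. MS023 gave 21.5% of coding events and 23 of 46 stop-bearing events at 2 days, 23.9% and 56.9% at 4 days, and 45.9% and 75.0% at 7 days. Stop-bearing exons were also called more often than coding exons, at 15.7% of 2150 tested events against 6.89% of 31307 with the co-treatment at 4 days. Frame-keeping exons gave 16.9% and 8.84%. The share called also went with level in that comparison. It was 13.9% at a mean Ψ below 0.1, 35.9% at 0.1 to 0.5, 30.9% at 0.5 to 0.9 and 4.39% at 0.9 or more. Transcripts with a stop-bearing exon may be degraded, and whether their share was changed by splicing or by decay was not tested. In the 7-day against the 4-day DMSO libraries the order was the other way, with 1 of 45 called stop-bearing events higher (2.22%) and 20 of 126 coding events (15.9%), while the frame-keeping shares were 16.7% of 30 and 18.1% of 177.

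**Figure D3:**
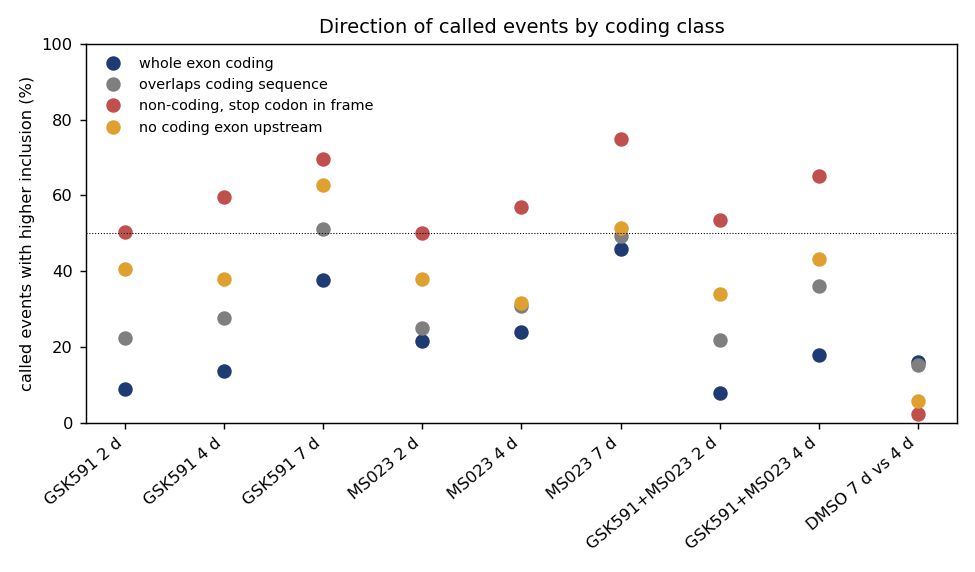
Share of called frame-shifting events with higher inclusion (percent, vertical axis) in each comparison, by coding class. The dotted line marks equal numbers of rises and falls. Stop-bearing exons (red) lie above coding exons (dark blue) in the 8 comparisons with DMSO, for example 65.1% against 17.8% with both inhibitors at 4 days, and below them in the DMSO groups, at 2.22% against 15.9%.

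Exons that fell with GSK591 are described first. NADK, the kinase that makes NADP from NAD, has a coding exon of 158 nt (chr1:1685490-1685647). Its Ψ was 0.955, 0.889 and 0.941 in the 4-day DMSO libraries and 0.490, 0.380 and 0.435 with GSK591 for 4 days. The groups did not overlap, and Ψ fell by 0.493 (adjusted p = 1.71e-24). At 2 and 7 days it fell by 0.400 and 0.346. With MS023 for 4 days the 3 libraries read 0.876, 0.937 and 0.939, within the range of the control or just below it, and no MS023 comparison called this exon.

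TELO2, which helps to assemble the large kinases of the ATM and mTOR family, lost an 80 nt coding exon (chr16:1551421-1551500) to a similar degree. Control libraries had a Ψ of 0.869, 0.908 and 0.910 and GSK591 libraries of 4 days 0.386, 0.391 and 0.400 (ΔΨ -0.503, adjusted p = 6.91e-28). Co-treated cells of 4 days read 0.320, 0.394 and 0.417, and the difference from GSK591 alone was not called (ΔΨ -0.0154, adjusted p = 0.944). TMEM214, a protein of the endoplasmic reticulum, carries a 49 nt exon (chr2:27261352-27261400) that went from 0.931, 0.892 and 0.922 to 0.448, 0.409 and 0.377 at 4 days (ΔΨ -0.503, adjusted p = 5.94e-18) and was still lower at 7 days (ΔΨ -0.430, adjusted p = 6.5e-08).

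The 64 nt exon of RAD51C, a homologous recombination protein, was kept in 0.895, 0.877 and 0.941 of transcripts in 4-day DMSO. With GSK591 for 4 days the values were 0.715, 0.588 and 0.589, all below the control (ΔΨ -0.274, adjusted p = 8.39e-08). At 7 days they were 0.575, 0.565 and 0.523 against 0.794, 0.833 and 0.778 (ΔΨ -0.247, adjusted p = 0.00042). The 2-day call (ΔΨ -0.222) was lost with the 7-day control (ΔΨ -0.120, adjusted p = 0.16). Co-treated libraries of 2 days gave a ΔΨ of -0.162, a call that was lost without library b of that group (ΔΨ -0.129, adjusted p = 0.125).

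ANAPC7 encodes a subunit of the anaphase-promoting complex, the ubiquitin ligase that drives the exit from mitosis. Its 112 nt exon, whose loss brings the stop shown above, had a Ψ of 0.953, 0.940 and 0.938 in the control and 0.708, 0.638 and 0.649 with GSK591 for 4 days (ΔΨ -0.279, adjusted p = 1.46e-25). MS023 libraries of 4 days read 0.975, 0.983 and 0.977, above each control library, though the difference was not called (ΔΨ 0.0346, adjusted p = 0.0885). In the direct test GSK591 and MS023 differed by -0.314 (adjusted p = 7.02e-38).

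Fewer exons rose with GSK591, and several of them lie outside the coding sequence or carry a stop. NDEL1, a regulator of dynein, has a 250 nt exon without a coding exon upstream (chr17:8347245-8347494). Its Ψ was 0.192, 0.146 and 0.167 in 4-day DMSO and 0.589, 0.577 and 0.563 with GSK591 for 2 days (ΔΨ 0.408, adjusted p = 1.34e-19). CUL2, a scaffold of ubiquitin ligases, rose at a 106 nt exon of the same class from 0.205, 0.369 and 0.449 to 0.925, 0.778 and 0.903 (ΔΨ 0.528, adjusted p = 2.17e-08). For both exons every GSK591 library of 2 days exceeded every control library. The CUL2 exon was chosen for its rise at 4 days and was not among the rises chosen at 2 days.

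RAD51D, another recombination protein, gained a coding exon of 119 nt (chr17:33445520-33445638) that most control transcripts lack. The control libraries stood at 0.246, 0.274 and 0.251, those with GSK591 for 4 days at 0.790, 0.726 and 0.749, and the co-treated ones at 0.816, 0.874 and 1.0. The rise was 0.498 with GSK591 (adjusted p = 3.27e-08) and 0.640 with both (adjusted p = 6.56e-11), while at 7 days GSK591 gave 0.179, which was not called (adjusted p = 0.129). MS023 did not move it past the threshold on any day.

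Stop-bearing exons of 3 genes rose with GSK591 on each day. In CDK10, a cyclin-dependent kinase, a 227 nt exon (chr16:89753997-89754223) went from 0.251, 0.303 and 0.321 to 0.689, 0.585 and 0.702 at 4 days (ΔΨ 0.367, adjusted p = 1.71e-08) and from 0.280, 0.361 and 0.275 to 0.549, 0.746 and 0.657 at 7 days (ΔΨ 0.345, adjusted p = 0.000313). CENPV, a centromere protein, has a 194 nt exon whose mean Ψ was 0.335, 0.491 and 0.654 at 2, 4 and 7 days against 0.249 and 0.297 in the DMSO groups, and the 3 rises were 0.0859, 0.242 and 0.358. XRCC5 encodes Ku80, which binds broken DNA ends, and its 85 nt exon is hardly used in the control, at 0.00749, 0.00261 and 0.00513. With GSK591 for 4 days it was used in 0.0811, 0.0978 and 0.0779 of transcripts (ΔΨ 0.0805, adjusted p = 2.33e-39), and with both inhibitors in 0.125, 0.119 and 0.138, above GSK591 alone by 0.0414 (adjusted p = 0.00628).

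Large changes with MS023 are described next. EP400, the ATPase of a chromatin remodelling complex, has a 236 nt coding exon (chr12:132547011-132547246) with a Ψ of 0.885, 0.850 and 0.910 in 4-day DMSO. MS023 brought it to 0.413, 0.530 and 0.516 at 2 days and 0.471, 0.413 and 0.491 at 4 days, all below the control (ΔΨ -0.395 and -0.423, adjusted p = 1.56e-19 and 5.51e-21). At 7 days it was 0.412, 0.382 and 0.490 against 0.930, 0.721 and 0.879 (ΔΨ -0.416, adjusted p = 8.33e-10). With GSK591 for 4 days it stayed at 0.907, 0.933 and 1.0 and was not called, and in the direct test the agents differed by 0.489 (adjusted p = 2.85e-28).

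A 173 nt exon of ACSF3, a mitochondrial acyl-CoA synthetase, fell in the same manner. Its libraries read 0.829, 0.691 and 0.862 in 7-day DMSO and 0.377, 0.371 and 0.402 with MS023 (ΔΨ -0.410, adjusted p = 3.59e-07). SNAP25, a SNARE protein of vesicle fusion, lost a 145 nt coding exon at 2 days, from 0.827, 0.774 and 0.771 to 0.425, 0.462 and 0.388 (ΔΨ -0.366, adjusted p = 3.24e-07). A 199 nt coding exon of ANKS3, an ankyrin repeat protein, fell at 2 days with either agent, from 0.813, 0.753 and 0.858 to 0.540, 0.437 and 0.362 with MS023 (ΔΨ -0.362, adjusted p = 3.62e-05) and to 0.498, 0.610 and 0.363 with GSK591 (ΔΨ -0.318, adjusted p = 0.00104). Among exons that rose, MKNK1, a kinase of the cap-binding factor eIF4E, went at a 44 nt coding exon from 0.246, 0.409 and 0.223 to 0.623, 0.629 and 0.659 at 4 days (ΔΨ 0.344, adjusted p = 2.13e-05). FLRT3, a leucine-rich repeat membrane protein, rose at a 194 nt exon from 0.201, 0.252 and 0.377 to 0.567, 0.568 and 0.513 at 7 days (ΔΨ 0.273, adjusted p = 4.39e-11).

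Some exons moved most with both inhibitors together. MSI2 encodes Musashi 2, an RNA-binding protein. A 73 nt exon in it that is coding in part (chr17:55754348-55754420) was kept in 0.911, 0.862 and 0.931 of control transcripts. At 4 days it read 0.590, 0.620 and 0.682 with GSK591, 0.711, 0.781 and 0.809 with MS023, and 0.270, 0.229 and 0.226 with both. The 3 sets of values did not overlap one another or the control, and the co-treatment fell below GSK591 alone by 0.389 (adjusted p = 6.75e-15).

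KIF23, a kinesin of the central spindle that is needed for cytokinesis, has the 79 nt exon shown above. It stood at 0.829, 0.796 and 0.814 in the control, at 0.559, 0.484 and 0.502 with GSK591 for 2 days and at 0.296, 0.323 and 0.348 with both (ΔΨ -0.298 and -0.491, adjusted p = 9.54e-15 and 3.4e-41). The co-treated libraries lay below those with GSK591 alone (ΔΨ -0.193, adjusted p = 3.76e-06). In NAE1, a subunit of the enzyme that activates NEDD8, an 86 nt exon beside an intron of only 49 nt went from 0.943, 0.9 and 0.982 to 0.297, 0.380 and 0.547 with both inhibitors for 2 days (ΔΨ -0.534, adjusted p = 3.8e-12). Its GSK591 libraries of 2 days read 0.684, 0.672 and 0.520 and overlapped the co-treated ones.

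RBCK1 and PUS1 showed the same order in opposite directions. A 136 nt exon of RBCK1, part of the linear ubiquitin ligase, was at 0.820, 0.803 and 0.782 in 4-day DMSO. It was lower with GSK591 (0.542, 0.594 and 0.574) and with MS023 (0.609, 0.547 and 0.531) at 4 days, and lowest with both (0.314, 0.257 and 0.231). For PUS1, a pseudouridine synthase, a 112 nt coding exon stood at 0.112, 0.0814 and 0.0768 in the control and rose to 0.169, 0.140 and 0.169 with GSK591 for 4 days, 0.169, 0.225 and 0.167 with MS023 and 0.591, 0.609 and 0.604 with both (ΔΨ 0.511, adjusted p = 2.09e-65). Co-treatment exceeded GSK591 alone by 0.442 in PUS1 (adjusted p = 4.73e-40) and fell below it by 0.303 in RBCK1 (adjusted p = 2.62e-11). The FLRT3 exon described with MS023 rose with both inhibitors to 0.826, 0.854 and 0.958 at 4 days (ΔΨ 0.555, adjusted p = 5.11e-19).

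**Figure D4:**
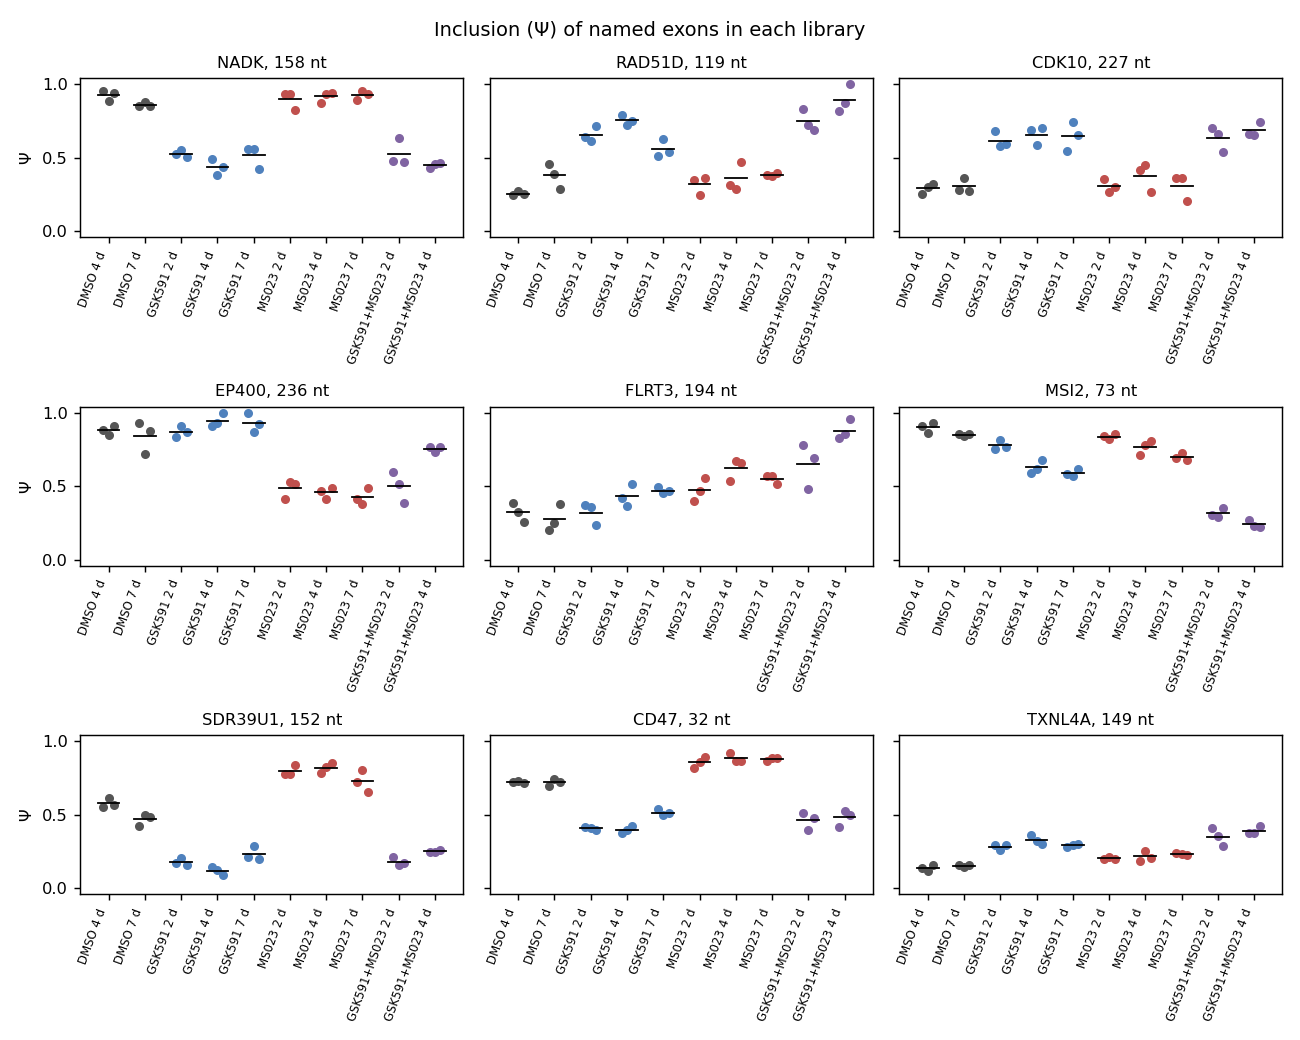
Ψ of 9 named exons in each of the 30 libraries, with a line at the mean of each group of 3 and the same colours as in the plot of mean Ψ by library. The NADK exon falls with GSK591 and with both inhibitors, EP400 with MS023, MSI2 most with both, and CD47 falls with GSK591 while it rises with MS023.

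Some exons moved in opposite directions with the 2 agents and were also called in the direct test between them. At 2, 4 and 7 days, 112, 205 and 177 events were called with both agents, of 28747, 29155 and 25596 tested. Of these calls, 36, 71 and 64 were opposite. The others moved the same way, with 65, 97 and 53 lower and 11, 37 and 60 higher with both agents. The like shares were not counted over all cassette exon events. Every opposite event was also called in the direct test. That outcome was largely set beforehand, since the direct test uses the same treated libraries, and it adds no separate support. The comparisons within a day share their DMSO libraries, so each agent's own values are given. CD47 encodes the surface protein that restrains phagocytosis. Its 32 nt exon was kept at 0.725, 0.732 and 0.714 in 4-day DMSO, at 0.374, 0.396 and 0.421 with GSK591 for 4 days and at 0.923, 0.863 and 0.865 with MS023. No library of either group overlapped the control (ΔΨ -0.327 and 0.160, adjusted p = 3.79e-15 and 3.24e-05). Co-treated libraries of 4 days read 0.420, 0.527 and 0.5, on the side of GSK591. The 2-day rise with MS023 (0.133) was lost without library c of that group (0.115, adjusted p = 0.0885).

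SDR39U1, a short-chain dehydrogenase, has a 152 nt exon that is coding in part (chr14:24911315-24911466). It was at 0.554, 0.613 and 0.567 in the control, at 0.143, 0.125 and 0.0937 with GSK591 for 4 days and at 0.782, 0.824 and 0.851 with MS023. In the direct test the agents differed by -0.621, -0.698 and -0.493 at 2, 4 and 7 days. FXYD5, a partner of the sodium pump, behaved alike at a 178 nt exon, with 0.257, 0.234 and 0.216 for GSK591 at 4 days, 0.743, 0.784 and 0.740 for MS023, and 0.644, 0.606 and 0.569 for DMSO. ABCB6, a porphyrin transporter, was at 0.494, 0.518 and 0.476 with GSK591 and at 0.946, 0.945 and 0.947 with MS023 for 7 days, on either side of 0.814, 0.846 and 0.840 in DMSO.

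HNRNPA2B1, itself a splicing regulator that carries methylated arginines, is among them. A 136 nt exon without a coding exon upstream (chr7:26230613-26230748) read 0.362, 0.413 and 0.357 in 4-day DMSO, 0.189, 0.174 and 0.167 with GSK591 for 2 days and 0.489, 0.558 and 0.573 with MS023. It fell by 0.201 with GSK591 (adjusted p = 2.36e-20) and rose by 0.162 with MS023 (adjusted p = 3.92e-09). This exon also differed between the DMSO groups, by -0.0817 (adjusted p = 0.0084), and its 2-day and 4-day falls with both inhibitors were lost with the 7-day control (ΔΨ -0.0314 and -0.0212).

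TBL1X and USP33 went the other way, up with GSK591 and down with MS023. A 145 nt exon of TBL1X, a subunit of a nuclear receptor corepressor, was at 0.843, 0.773 and 0.772 with GSK591 for 7 days, 0.420, 0.347 and 0.385 with DMSO and 0.265, 0.145 and 0.110 with MS023 (direct difference 0.623, adjusted p = 2.3e-24). USP33, a deubiquitinase, has a 179 nt exon that stood at 0.739, 0.619 and 0.632 with GSK591 for 4 days, 0.420, 0.376 and 0.419 with DMSO and 0.149, 0.175 and 0.203 with MS023. With both inhibitors it read 0.229, 0.327 and 0.375, which was below GSK591 alone (ΔΨ -0.353, adjusted p = 3.78e-08) and was not called against DMSO.

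Of the 21230 events tested in all 8 comparisons, which share control libraries, 26 were called in all 8. Of these, 4 rose throughout, 8 fell throughout and 14 changed direction between comparisons. The like share over all cassette exon events was not counted. TXNL4A, a component of the U5 snRNP of the spliceosome, has a stop-bearing exon of 149 nt that was at 0.136, 0.116 and 0.156 in 4-day DMSO. It rose to 0.365, 0.323 and 0.304 with GSK591, 0.187, 0.257 and 0.209 with MS023 and 0.376, 0.376 and 0.422 with both at 4 days (ΔΨ 0.195, 0.0812 and 0.255). A stop-bearing exon of 182 nt in VSIG10 also rose in all 8, from 0.143, 0.217 and 0.254 to 0.393, 0.499 and 0.387 with GSK591 and 0.385, 0.433 and 0.527 with MS023 at 7 days. KIAA1191 fell in all 8 at a 106 nt exon, for example from 0.693, 0.689 and 0.628 to 0.244, 0.267 and 0.258 with both inhibitors for 4 days (ΔΨ -0.414, adjusted p = 1.11e-22).

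The 167 nt exon of PKM, pyruvate kinase, is one of a mutually exclusive pair and lies 401 nt from the other. Its Ψ was 0.00435, 0.0051 and 0.0036 in 4-day DMSO, 0.0107, 0.00973 and 0.00954 with GSK591 for 4 days and 0.0315, 0.0294 and 0.0282 with both. All of these treated libraries exceeded the control, and the difference of 0.0254 with both (log2 odds ratio 2.8) is small on the scale of Ψ. RPLP0, a protein of the ribosomal stalk, has a 217 nt exon at 0.911, 0.915 and 0.922 in the control that fell to 0.701, 0.694 and 0.686 with MS023 and to 0.407, 0.402 and 0.396 with both at 4 days. RPLP0 has processed copies in the genome that could share its reads, so its values are uncertain. At 7 days with GSK591 it fell by 0.0332, a call that was lost when the dispersion was held at the event's own level.

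**Figure D5:**
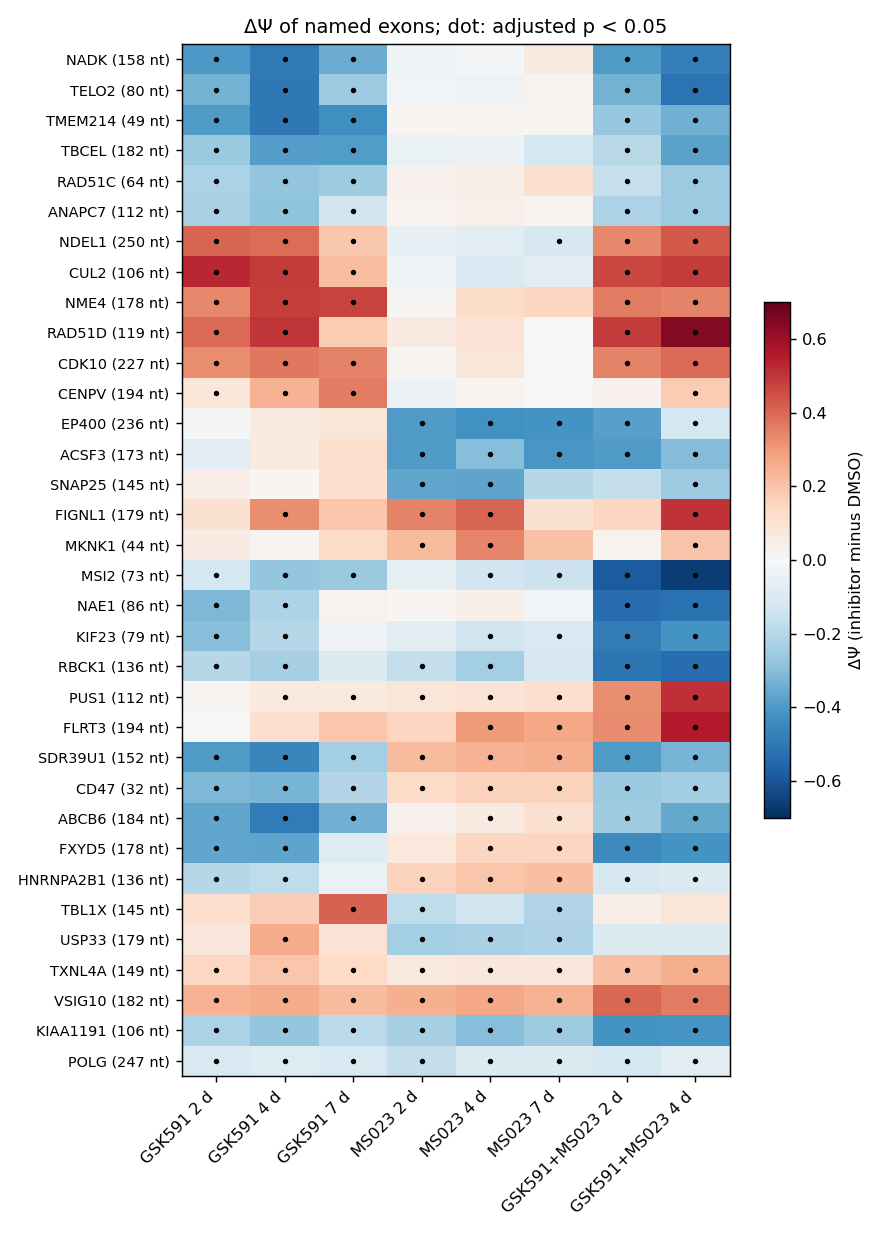
ΔΨ (inhibitor mean minus DMSO mean, colour) of the named exons in the 8 comparisons with DMSO, with red for higher and blue for lower inclusion and a dot where the event was called. NADK, TELO2 and TMEM214 are blue under GSK591 and both inhibitors, EP400 and ACSF3 under MS023 and both, and MSI2 has its largest falls, 0.585 and 0.659, under both.

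Many splicing regulators carry such exons in their own genes, and groups of genes were followed with lists taken over from an earlier look at these data. Among 14 SR proteins and TRA2 genes, with the co-treatment at 4 days, 5 of 18 tested exons were called, 3 higher and 2 lower (23.8% of 21 events, background 9.74%). After 7 days of MS023, the quasi-binomial test called 0 of 23 exons (0 of 26 events, background 2.40%), and 3 had an unadjusted p under 0.05. Limma on the log2 odds called 0 frame-shifting events in this comparison, so its 0 on this list was set beforehand. With the co-treatment at 4 days the median ΔΨ of the tested events of this list was 0.00112, against -0.00188 over all cassette exon events. With MS023 at 7 days these medians were 0.000895 and -0.000137. SRSF6, an SR protein, has a stop-bearing exon of 268 nt that was at 0.101, 0.104 and 0.116 in 4-day DMSO, 0.186, 0.197 and 0.196 with GSK591 for 4 days and 0.300, 0.301 and 0.274 with both (ΔΨ 0.185, adjusted p = 1.56e-34). SRSF2 moved down at a 104 nt exon with GSK591 for 2 days, from 0.0770, 0.0758 and 0.0853 to 0.0361, 0.0195 and 0.0295 (ΔΨ -0.0510, adjusted p = 5.3e-17). Its 4-day rise with MS023 was 0.0232 and was lost without any of 5 of the 6 libraries, for example at 0.0212 and an adjusted p of 0.248 without library b of MS023.

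For 51 hnRNP and other splicing regulator genes, 46 of 187 tested exons were called with both inhibitors for 4 days, 13 higher and 33 lower, and 20.2% of their 257 events were called against 9.74% of all cassette events. With MS023 at 4 days it was 12 of 163 exons, 4 higher and 8 lower (5.29% of events, background 1.88%). HNRNPC, an abundant pre-mRNA packaging protein, fell at a 272 nt exon without a coding exon upstream, from 0.270, 0.267 and 0.288 to 0.140, 0.145 and 0.137 with both for 4 days (ΔΨ -0.134, adjusted p = 2.15e-25). The CLK kinases phosphorylate SR proteins, and among 9 splicing kinase genes 3 of 30 exons were called with both for 4 days, all lower and all in CLK2, and the share of 9.38% of 32 events was near the background of 9.74%. The 85 nt exon of CLK2, shown above, was at 0.786, 0.693 and 0.723 in the control and 0.305, 0.334 and 0.196 with both (ΔΨ -0.455, adjusted p = 1.08e-09). In CLK4 the homologous exon went from 0.886, 0.971 and 0.974 to 0.775, 0.596 and 0.646 with MS023 for 7 days (ΔΨ -0.271, adjusted p = 1.05e-05). That of CLK1 gave -0.203 in the same comparison, a call lost without library a of MS023 (-0.148, adjusted p = 0.31).

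In the NMD and exon junction complex list of 21 genes, 10 of 90 exons were called with both inhibitors for 4 days, 3 higher and 7 lower (8.20% of 122 events, background 9.74%), and 1 of 96, which was lower, with MS023 at 4 days (0.787% of events, background 1.88%). UPF3A, an NMD factor, rose at a 107 nt coding exon from 0.743, 0.703 and 0.707 to 0.912, 0.938 and 0.951 with GSK591 for 7 days (ΔΨ 0.216, adjusted p = 1.91e-07). MS023 gave 0.608, 0.582 and 0.598 in the same exon, below the control and not called (ΔΨ -0.122, adjusted p = 0.206). The p53 and apoptosis list (36 genes) had 12 of 105 exons called with both for 4 days, 1 higher and 11 lower, or 9.21% of 152 events, near the background of 9.74%. BBC3, which encodes the p53 target PUMA, gave 0.739, 0.637 and 0.486 in the control and 0.479, 0.363 and 0.360 with both at a 289 nt exon, a call (adjusted p = 0.00918) that was lost without library a of DMSO (adjusted p = 0.141), library b of DMSO or library c of the co-treatment.

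Among 85 DNA repair genes, 52 of 396 exons were called with both inhibitors for 4 days, 12 higher and 40 lower, and 39 of 406 with GSK591, 8 higher and 31 lower. As shares of events these were 11.5% and 7.22%, against backgrounds of 9.74% and 6.61%. The median ΔΨ over their tested events was -0.00414 and -0.00514, against -0.00188 and -0.00190 over all cassette events. With MS023 no more than 3 of their exons were called on any day (0.339%, 0.526% and 0.594% of events at 2, 4 and 7 days, background 1.52%, 1.88% and 2.40%). FANCI, a Fanconi anemia protein, fell at a 185 nt coding exon from 0.908, 0.896 and 0.840 to 0.684, 0.708 and 0.676 with GSK591 for 7 days (ΔΨ -0.192, adjusted p = 0.00148).

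Mitosis genes (74) had 30 of 299 exons called with both inhibitors for 4 days, 8 higher and 22 lower, and 11 of 267 with GSK591 for 7 days, 7 higher and 4 lower. These were 8.58% of 408 events and 4.06% of 345, below the backgrounds of 9.74% and 4.66%. STAG2, a cohesin subunit, has a 65 nt exon that read 0.0808, 0.112 and 0.0681 in 7-day DMSO and 0.0, 0.0217 and 0.0139 with GSK591 (ΔΨ -0.0750, adjusted p = 0.000222). The arginine methyltransferase genes, 13 in all, had 7 of 36 exons called with both for 4 days, 4 higher and 3 lower (15.2% of 46 events, background 9.74%). With MS023 the quasi-binomial test called 1 of 34 at 4 days (2.33% of 43 events, background 1.88%). At 2 and 7 days it called 0 of 34 (0 of 44 and 0 of 42 events, background 1.52% and 2.40%). On those days 6 and 3 exons had an unadjusted p under 0.05. Limma on the log2 odds, which called 0 frame-shifting events with MS023 on any day, called 0 here as well. No test was run against the background. PRMT2 rose at a 172 nt coding exon from 0.743, 0.855 and 0.904 to 0.990, 0.990 and 0.971 with both (ΔΨ 0.150, adjusted p = 0.000129), and PRMT7 fell at a 37 nt exon from 0.936, 0.935 and 0.889 to 0.722, 0.718 and 0.680 (ΔΨ -0.213, adjusted p = 3.23e-09).

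The exons that fell differed from all tested exons at the 5′ splice site and in their surroundings. With GSK591 for 4 days, 54.7% of the 1607 exons that fell had A as the second-last base, against 63.3% of the 29907 tested and 69.3% of the 525 that rose. The last base was G in 74.7%, 78.8% and 81.5% of the same sets, and the third intron base was A in 51.8%, 61.6% and 55.8%. Exons that fell with MS023 for 4 days had A as the second-last base in 56.4% of 390, while G as the last base (77.9%) and A as the third intron base (62.3%) were near the tested shares of 79.0% and 62.0%. Median GC content was 52.3% in the exons that fell with GSK591 and 48.6% in those tested, and 39.5% against 27.3% had 1 flanking intron of 500 nt or less. The exons that rose with GSK591 lay between these sets in median GC content. They also lay between them in short flanking introns, at 34.7%. A as the third intron base was also rarer in the rises than in the tested exons. With both inhibitors for 2 days it stood in 56.3% of the exons that fell, 53.6% of those that rose and 61.9% of those tested. GC content, short flanking introns and the third intron base were therefore not particular to the falls. Of the exons printed above, NAE1, CD47 and KIF23 have G as the second-last base and end in G. The others have A there, of which that of ANAPC7 ends in G and those of RAD51C and the CLK genes do not. These shares describe exons that partly share genes, and no test was run on them.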

How the data were processed

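Splicing in A549 cells was measured by poly(A)-RNA seq and deposited as 8 tables of alternative splicing events, 1 for each treated group against DMSO, of which the cassette exon events were used. Per the submitters' processing notes, reads were trimmed with Trim Galore 0.6.5 and aligned to hg19 with STAR 2.4.2a, and rMATS counted junction and exon-body reads. Picard 2.3.0 and deepTools 3.3.1 are also named there. Each deposited cell packs the read counts of 3 libraries, a, b and c, which carry no replicate numbers. The tables also hold p-values, FDR values and inclusion differences from the authors' own comparisons, which were not used. The control of the 7-day tables is not named after DMSO and was inferred to be the 7-day DMSO group.

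Ψ was the inclusion count divided by its effective length, over that value plus the skipping count divided by its own. Counts were tested with a quasi-binomial F test in R 4.3.3, with dispersions moderated by limma 3.58.1, held at 1 or above, and Benjamini-Hochberg adjustment over all cassette exon events tested. At least 10 reads in every library and 1 read of each form were required. The test was checked on simulated counts. Exons were placed on GRCh37 with the GENCODE annotation lifted to that build, and sequences were read from that genome.

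The members and gene lists were chosen with earlier results of these data known. Named exons needed 50 reads in every library of a comparison that chose them, so other comparisons of the same exon can hold fewer. They were the 4 that rose and the 4 that fell most in each comparison and 10 called in the most comparisons. Up to 4 opposite with both inhibitors a day, and up to 3 for each list, were added. Alternatives were the read minimum, limma on log2 odds, Ψ without effective lengths and leaving out each library. A higher dispersion and the 7-day DMSO control were added after seeing the data. The planned edgeR fit was not run because the packed counts are not a count table. Reads per library limit precision, and p-values cover the spread of 3 libraries. SKaTER-seq and actinomycin D data were not analysed here. An exon that the rule would name is not reported here.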

Additional observations from a re-analysis of the deposited data

Results flagged for a closer look

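Results are listed here where an exon was called in opposite directions with GSK591 and MS023 and the direct test between the agents, with limma moderation, also called it. The direct test uses the same treated libraries and called every opposite event, so it is no separate support. Values are Ψ with GSK591 minus Ψ with MS023.

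Most of these exons were lower with GSK591. The 152 nt exon of SDR39U1 differed by -0.621, -0.698 and -0.493 at 2, 4 and 7 days, and the 122 nt exon of the same gene by -0.663 and -0.421 at 4 and 7 days. CD47 differed by -0.448, -0.487 and -0.363 on the 3 days. In C16orf13 the 175 nt exon gave -0.343, -0.43 and -0.452, and the 163 nt exon gave -0.371 and -0.343 at 2 and 4 days. ABCB6 gave -0.55 and -0.45 at 4 and 7 days, and FXYD5 gave -0.52 at 4 days. The MS023 call of ABCB6 at 4 days (0.0606) was lost without library b of DMSO (0.0476, adjusted p = 0.252) and without any of 3 others. For HNRNPA2B1 the differences were -0.363 and -0.373 at 2 and 4 days. SRSF2 differed by -0.0581 at 4 days, and its MS023 call there was lost with the dispersion held at the event's own level.

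The others were higher with GSK591. NDEL1 differed by 0.302 at 7 days, TBL1X by 0.623 at 7 days, USP33 by 0.488 at 4 days and WBSCR22 by 0.467 at 2 days. The last exon lost its call against DMSO with either agent when single libraries were left out.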

How the results depend on the processing

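No paired analysis was possible because the libraries in the tables carry no replicate numbers. Limma on the log2 odds called fewer events in every comparison. It called 1444 with both inhibitors at 2 days (9.972% higher), 1870 at 4 days (23.42%), 432 with GSK591 at 4 days (13.66%) and 71 at 7 days (35.21%). GSK591 against MS023 gave 53, 965 and 488 at 2, 4 and 7 days. It called 0 with GSK591 at 2 days, with MS023 on any day, for both inhibitors against GSK591 and between the DMSO groups, with 4913, 3257, 3414, 3634, 2977, 3270 and 3158 at an unadjusted p under 0.05. The cause was not tested.

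With the 7-day DMSO control, chosen after seeing the data, the share that rose was 37.68% and 40.36% with GSK591 at 2 and 4 days and 27.13% and 39.94% with both. With MS023 it turned to 56.07% of 1211 and 62.09% of 1385. HNRNPR turned to 0.0321 with GSK591 at 4 days and to 0.0462 and 0.047 with MS023 at 2 and 4 days. The cause was not tested. With the dispersion at the event's own level, also added after seeing the data, GSK591 at 7 days had 50.88% higher and the DMSO groups 248 calls. With 10 reads of each form, a limit that fewer events pass, there were 937 calls with MS023 at 4 days and 585 between the DMSO groups. The cause of these higher counts was not tested.

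Leaving out 1 library gave 963 to 1085 calls with GSK591 at 2 days (17.61% to 21.11% higher), 1676 to 1825 at 4 days (23.86% to 26.41%) and 990 to 1098 at 7 days (45.99% to 54.03%). It gave 318 to 364 with MS023 at 2 days (24.21% to 29.78%), 428 to 480 at 4 days (30.44% to 33.26%) and 448 to 676 at 7 days (48.44% to 57.84%), so the balance at 7 days turned with single libraries. Co-treatment gave 2352 to 2503 at 2 days (16.75% to 18.54%) and 2709 to 2897 at 4 days (28.04% to 30.86%). GSK591 against MS023 gave 1449 to 1724, 2451 to 2583 and 1748 to 1850, both inhibitors against GSK591 502 to 644 and 754 to 875, and the DMSO groups 169 to 369. The lowest counts came without library b or c of MS023 at 2 days (318), library b of DMSO at 7 days (448 with MS023, 169 between the DMSO groups, and 183 without library a) and library b of the co-treatment at 2 days (502).

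Of 279 calls of named exons, 56 were lost when some library was left out, 222 under limma on the log2 odds, 12 with the higher dispersion and 2 with a minimum of 1 read. With the 7-day control 35 of 201 were lost. None was lost with 20 reads in every library, 10 of each form or Ψ without effective lengths. With a median of 141 to 243 reads per event and library, depth limits the precision at events with fewer reads.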
